A study of Mus musculus with 37 samples.

Results

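The comparison described here set cultures of bone marrow (BM) from DKO mice that carried a tumor, called BMT, against cultures from young DKO mice with none, called yBM, in the first set of libraries (set 1). Its members were chosen by label, as the 3 libraries labelled DKO BMT 1 to 3 and the 6 labelled DKO yBM 1 to 6, 9 of the 37 libraries of the series. BMT cells came from DKO mice at the time of tumor detection, and yBM cells came from DKO mice aged 1.5 months (yBM 1 to 3) or 4 months (yBM 4 to 6). In all 9, the Osx1-Cre transgene, active in osteoblast precursors, is meant to delete Wwox and Trp53 and to switch on a Rosa26-LSL-tdTomato reporter. The other libraries of set 1 are 4 of control BM and 3 of DKO tumor cells, and a set 2 of 21 libraries repeats the design with mice labelled SKO, in which the deletion is of Trp53 only, beside DKO mice. All 9 cultures were grown from flushed marrow and taken after passages at which tdTomato-positive cells dominated the culture, so a library can hold cells without the deletion. The labels give no age for the BMT mice, and age and the presence of a tumor cannot be told apart in this comparison. The labels name no mouse for a library, while the methods give as many mice without tumors as there are yBM libraries, and where a mouse gave more than 1 library the p-values reflect spread that may be technical.

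Osteosarcoma is a bone tumor whose cells make bone matrix, and its cell of origin is placed among mesenchymal stem cells and osteoblast precursors. Marrow stromal cells grown on plastic spread, take up tension and express smooth muscle genes, many of them driven by serum response factor and by Yap and Taz, the co-activators of the Hippo pathway. Wwox is a tumor suppressor and Trp53 encodes p53, the transcription factor that halts or kills damaged cells.

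Expression was measured as TPM, a share of all transcripts that adjusts for transcript length within each library. Between 12707 and 12772 genes reached 1 TPM in the BMT libraries, against 12113 to 12640 in the yBM libraries. Trp53 was at 9.17, 28.4 and 32.3 TPM in BMT 1 to 3 and at 3.63 to 16.2 TPM in yBM, while control BM held 40.1 to 53.4 TPM, so all 9 lay below every control. BMT 2 and BMT 3 were at 63.4% and 72.1% of the control mean and BMT 1 at 20.5%, so these 2 libraries kept most of the transcript, and whether they hold cells without the deletion was not tested. Wwox was at 4.74, 0.48 and 1.15 TPM in BMT and at 0.335 to 4.04 TPM in yBM, and both ranges overlapped the 0.922 to 4.26 TPM of control BM. A gene-level value does not show which part is deleted, and the Wwox level told no group of set 1 apart. BMT 3 carried the female transcript Xist at 21.9 TPM and the Y-linked Ddx3y at 0.024 TPM, whereas the other 8 libraries had Xist at 0.0493 TPM or less and Ddx3y at 5.92 TPM or more, so BMT 3 alone of the 9 had the pattern of a female. On the first principal component, with 25.2% of the variance, BMT 1 stood apart from the other libraries (-57.1, against -16.5 to 18.2). On the second, with 18.8%, yBM 3 and yBM 4 (-25.1 and -22.8) lay apart from the other 4 yBM libraries (15.1 to 24.4), a split that does not follow age. Transcripts of the mitochondrial genome took 13.3% ± 8.45 of the TPM in BMT (SD, n = 3) and 16.2% ± 4.88 in yBM (SD, n = 6), a difference that did not pass a two-sided exact permutation test over the 84 splits (p = 0.524, smallest possible 0.0238).

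Of the 13195 genes that reached 1 TPM in 3 or more of the 9 libraries, 0 (0%) passed the limma test of BMT against yBM at an adjusted p under 0.05, and the smallest adjusted p was 0.0645. At an unadjusted limma p under 0.05, 1040 genes (7.88%) were higher and 332 (2.52%) were lower in BMT. All 3 BMT libraries lay above all 6 yBM libraries for 449 genes (3.4%) and below them for 223 genes (1.69%). The excess of higher genes moved with the scaling. The median log2 difference over all genes was 0.17 on TPM and -0.02 after median-ratio scaling, where the counts became 551 higher and 709 lower. The share that was higher was 75.8% on TPM, 43.7% with median-ratio scaling, 53.7% after quantile normalization and 42.3% after centring by transcript length. Since no gene passed, the genes below are given as values, and every higher or lower is a description of these 9 libraries. A fit to the 9 libraries alone, without the control and tumor libraries, called 6 genes higher and 15 lower. Among the 21 were Myl9, Cnn1, Tagln, Tpm2, Acta2 and Actg2, all lower, with adjusted p of 0.0238 for Myl9 and Cnn1 and 0.0422 for the other 4.

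The smooth muscle and contractile genes made the clearest group. Of the 16 tested members of this list, 15 were lower in BMT, as were 4429 of all 13195 genes. At an unadjusted p under 0.05, 12 were lower (2.52% of all genes). Without overlap of the libraries, 11 were lower (1.69% of all genes). The median log2 difference of the list was -1.38, against 0.17 over all genes tested. The list holds the actins, myosins, tropomyosins and calponins that build the contractile apparatus of smooth muscle and of activated stromal cells. To show what the regulatory sequence of such genes looks like, the promoters of 2 light chain genes described below are printed from RefSeq (GRCm38.p6), as a window around the start of the gene, with the CArG box, the element bound by serum response factor, in capitals. The Myl9 window lies at chr2:156775214-156775513 (+ strand) and the Myl6 window at chr10:128492960-128493259 (- strand).

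Myl9 promoter: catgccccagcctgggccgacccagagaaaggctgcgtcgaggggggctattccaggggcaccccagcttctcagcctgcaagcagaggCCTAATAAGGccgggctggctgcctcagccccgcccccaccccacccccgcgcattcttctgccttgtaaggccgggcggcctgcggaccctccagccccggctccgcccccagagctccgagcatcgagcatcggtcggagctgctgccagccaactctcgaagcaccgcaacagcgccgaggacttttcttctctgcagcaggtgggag
Myl6 promoter: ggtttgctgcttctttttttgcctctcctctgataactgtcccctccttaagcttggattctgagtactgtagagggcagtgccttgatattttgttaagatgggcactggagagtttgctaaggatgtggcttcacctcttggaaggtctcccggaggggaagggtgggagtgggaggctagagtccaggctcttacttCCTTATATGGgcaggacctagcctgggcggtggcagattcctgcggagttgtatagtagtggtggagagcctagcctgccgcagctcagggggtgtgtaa

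The box begins 161 bases before the start of Myl9 and 50 bases before that of Myl6. Of the 13 tested contractile genes with a promoter in the table, 3 (Myl9, Cnn2 and Ldb3) hold a CArG box in this window, against 1.81% of the 27025 genes with a promoter. The box was searched on both strands, and its absence from a window says only that the letters are not there.

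Myl9, the regulatory light chain of smooth muscle and non-muscle myosin, was at 352, 738 and 614 TPM in BMT and at 1790, 1990, 2160, 1770, 2140 and 2410 TPM in yBM. The highest BMT library lay below the lowest yBM library, and the log2 difference was -1.90 ± 0.33 (SE, adjusted p = 0.0834). The alkali light chain Myl6, which is not on the list and is named for its small p, was at 1510, 2020 and 2010 TPM in BMT, against 3350 to 4360 TPM in yBM (log2 difference -1.04). Mylk, the kinase that phosphorylates the regulatory light chain, was at 33.2, 21.4 and 40.6 TPM in BMT and at 46.6, 111, 86.1, 103, 48.3 and 81.6 TPM in yBM (-1.27 ± 0.39, adjusted p = 0.309). The heavy chain Myh11 was low throughout, at 0.139, 0.486 and 0.102 TPM in BMT and 1.47 to 15.1 TPM in yBM. The 3 myosin chains and the kinase had non-overlapping libraries, with BMT below.

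The thin filament genes had the same order. Acta2, smooth muscle actin, was at 798, 946 and 609 TPM in BMT, against 1560 to 2810 TPM in yBM (-1.50 ± 0.47, adjusted p = 0.312). The enteric actin Actg2 was at 50.7, 80.5 and 49.8 TPM in BMT, against 204 to 628 TPM in yBM (-2.30). Tagln, the actin-bundling transgelin, was at 196, 244 and 164 TPM in BMT and at 787, 922, 571, 426, 614 and 772 TPM in yBM (-1.73 ± 0.42, adjusted p = 0.22). These 3 genes did not overlap between the groups. Cnn1, a calponin that restrains actomyosin, was at 88.3, 195 and 188 TPM in BMT, against 542 to 808 TPM in yBM (-2.12 ± 0.59, adjusted p = 0.268). Lmod1, a leiomodin that nucleates actin filaments, was at 1.33, 2.35 and 2.97 TPM in BMT and at 12.7, 19.3, 10.1, 6.29, 12.7 and 17.8 TPM in yBM (-2.09 ± 0.45, adjusted p = 0.207). Tropomyosin Tpm2 was at 175, 348 and 238 TPM in BMT, against 611 to 1010 TPM in yBM (-1.66), while Tpm1 differed less, at 910, 459 and 479 TPM in BMT and 919 to 1190 TPM in yBM (-0.79). Caldesmon, Cald1, was at 283, 309 and 130 TPM in BMT, against 339 to 666 TPM in yBM (-1.19). Not all cytoskeletal members took part, as the crosslinker Flna was at 347, 619 and 606 TPM in BMT and 417 to 678 TPM in yBM, and smoothelin, Smtn, at 35.5, 27.7 and 43.5 TPM in BMT and 17.6 to 62.3 TPM in yBM. Both had log2 differences close to 0 (-0.10 and 0.11), and that of Smtn turned to -0.09 with median-ratio scaling and -0.06 with quantile normalization, while that of Flna turned to 0.17 without BMT 1.

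**Figure D1:**
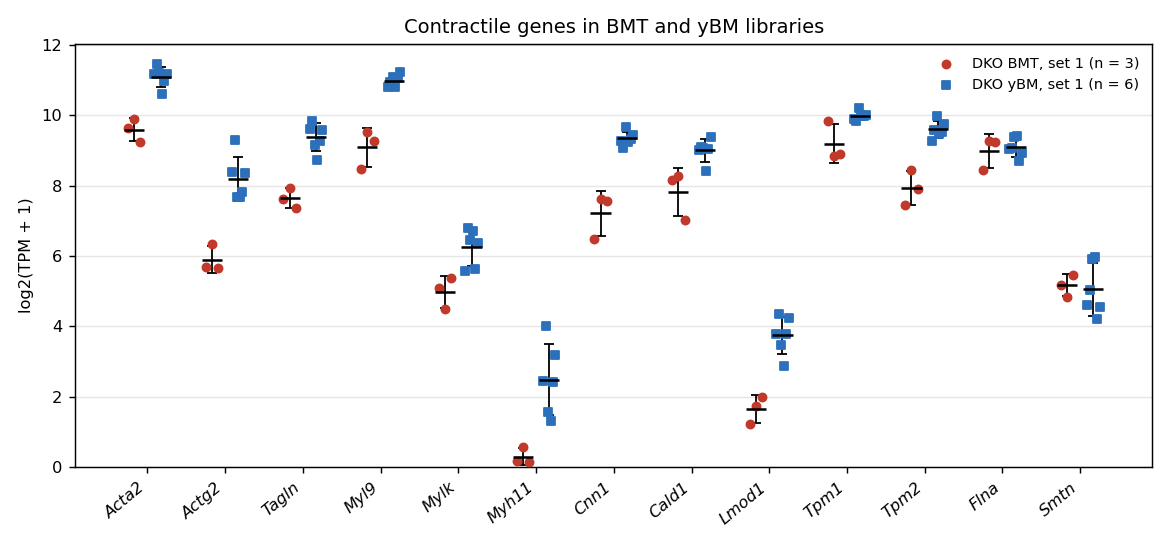
Expression of 13 contractile genes as log2(TPM + 1), with 3 DKO BMT libraries (red circles) and 6 DKO yBM libraries (blue squares) per gene, where black lines are the mean and the error bars the SD. For 11 of the 13 all BMT points lie below all yBM points, as for Myl9 (352 to 738 TPM in BMT, 1770 to 2410 TPM in yBM), while Flna and Smtn overlap.

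The level of the contractile list, the mean log2(TPM + 1) of its members, was 5.79, 6.08 and 5.95 in BMT and 7.02 to 7.62 in yBM. Control BM ranged from 6.85 to 8.81 and DKO tumor cells from 7.26 to 7.55, so the BMT libraries were also below all of these. The leukocyte list, described further on, was at 6.37 to 7.02 in BMT and 3.6 to 7.43 in yBM. With its level as a covariate the contractile count stayed at 12 and the median at -1.37. The count was 8 against the 4-month libraries only and 11 against the 1.5-month ones, where 255 and 241 of all genes were lower. It was 11 without yBM 3 and 4 and 8 without BMT 3, where 480 and 290 of all genes were lower. With BMT 1 set alone against yBM the list median was -1.38. Short transcripts were more often lower in BMT over the whole table, as 6.22% of genes with a longest annotated transcript up to 1000 bases and 0.884% of those above 6000 bases were lower at an unadjusted p under 0.05. The contractile genes had a median length of 3138 bases, close to the 3165 of all genes. After centring by length 14 of the 16 were lower at that p, against 677 of all genes, with a list median of -1.60.

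Genes of the Yap and Taz list partly followed. The list holds response genes and also members of the pathway itself, such as Yap1, Wwtr1 (Taz), Tead3 and Lats2. Of 21 genes tested, 6 were lower (2.52% of all genes) and 2 higher (7.88% of all genes) at an unadjusted p under 0.05, with a median of -0.22. A pair of their promoters is shown because both carry the letters CATTCC or GGAATG, the core bound by the Tead factors through which Yap and Taz act, given in capitals. The Ankrd1 window is at chr19:36119795-36120094 (- strand) and the Ccn1 window at chr3:145649936-145650235 (- strand), from RefSeq (GRCm38.p6).

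Ankrd1 promoter: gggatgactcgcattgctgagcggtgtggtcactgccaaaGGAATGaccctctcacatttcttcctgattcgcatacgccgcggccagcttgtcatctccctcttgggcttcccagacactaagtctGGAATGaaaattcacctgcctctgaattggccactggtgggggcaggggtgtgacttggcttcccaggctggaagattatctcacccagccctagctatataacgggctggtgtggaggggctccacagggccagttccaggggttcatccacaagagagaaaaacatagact
Ccn1 promoter: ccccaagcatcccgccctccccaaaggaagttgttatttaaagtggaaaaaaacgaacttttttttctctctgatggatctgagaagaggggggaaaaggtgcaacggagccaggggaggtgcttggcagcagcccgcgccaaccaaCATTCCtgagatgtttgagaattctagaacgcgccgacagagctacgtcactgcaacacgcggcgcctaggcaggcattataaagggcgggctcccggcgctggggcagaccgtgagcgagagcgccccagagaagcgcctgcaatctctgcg

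The core begins 210 and 123 bases before the start of Ankrd1 and 103 bases before that of Ccn1. It occurs on either strand in 11 of the 15 tested list members with a promoter in the table, against 16.6% of all genes with one. Ankrd1, a nuclear and sarcomeric ankyrin repeat protein, was at 3.83, 0.688 and 3.08 TPM in BMT and at 13.1, 25.9, 14.1, 5.96, 25.2 and 20.6 TPM in yBM (-2.39, adjusted p = 0.42). The matricellular proteins Ccn1 and Ccn2 were lower on average but overlapped. Ccn1 was at 83.3, 17.8 and 66.1 TPM in BMT, against 56.5 to 216 TPM in yBM (-1.54), and Ccn2 was at 34, 197 and 142 TPM in BMT, against 129 to 506 TPM in yBM (-1.63). In each case yBM 4 was the yBM library inside the BMT range. Tead3 itself, one of the DNA-binding partners, was at 5.28, 17.9 and 23.2 TPM in BMT and at 42.8, 40.6, 66.8, 79.6, 49.2 and 52.4 TPM in yBM (-1.94 ± 0.46, adjusted p = 0.212). Amotl2, an angiomotin that holds Yap in the cytoplasm, was at 63.6, 56.4 and 100 TPM in BMT, against 99 to 281 TPM in yBM, and F3, tissue factor, was at 4.46, 8.55 and 2.12 TPM in BMT, against 10.1 to 38.6 TPM in yBM. The guanine nucleotide exchange factor Dock5 went the other way, with 5.63, 16.2 and 18.2 TPM in BMT and 2.52 to 10.6 TPM in yBM. The count of lower genes was 2 against the 4-month libraries only and 3 without BMT 2, where 255 and 333 of all genes were lower. The list median was -0.40 with median-ratio scaling, which also moved the median of all genes from 0.17 to -0.02. On TPM the list median was -0.09 against the 4-month libraries only, -0.02 without yBM 3 and 4 together and -0.04 with BMT 1 alone.

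Matrix and its remodelling enzymes showed single genes rather than a group. At an unadjusted p under 0.05, where 2.52% of all genes were lower and 7.88% higher, 6 of 36 other matrix genes were lower and 0 higher, of 25 proteases and inhibitors 3 were lower and 0 higher, and of 24 collagens 1 was higher. Nid2, a nidogen that links laminin and collagen IV in basement membranes, was at 12.5, 15.9 and 11.8 TPM in BMT and at 24.5, 56.1, 68.9, 33.6, 32.2 and 53.4 TPM in yBM (-1.59 ± 0.35, adjusted p = 0.207). Mfap5, a microfibril glycoprotein, was at 12.3, 27.2 and 7.91 TPM in BMT, against 77.9 to 359 TPM in yBM (-3.15, adjusted p = 0.36). Both were without overlap. The aggrecanases Adamts1 and Adamts5 were at 2.58 to 6.86 and 1.28 to 4.51 TPM in BMT, against 8.48 to 23.5 and 6.92 to 13.5 TPM in yBM. Collagenase 3, Mmp13, an enzyme of hypertrophic cartilage and bone, was at 32.8, 90.1 and 76.4 TPM in BMT, against 125 to 389 TPM in yBM (-2.05). Col15a1, a basement membrane collagen, was at 106, 3.68 and 11 TPM in BMT and at 0.313 to 5.27 TPM in yBM, a mean that BMT 1 carried. Without yBM 3 and 4, left out after the data were seen, 7 collagens and 4 matrix genes were higher at that p, as were 1705 of all genes. Without BMT 1 no collagen was higher, against 667 of all genes.

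Among ligands and antagonists of the TGF beta family, 3 of 27 were lower (2.52% of all genes) and 0 higher (7.88% of all genes) at an unadjusted p under 0.05. Bmp4, a bone morphogenetic ligand, was at 67.9, 53.3 and 61.7 TPM in BMT and at 191, 207, 232, 80.2, 275 and 370 TPM in yBM (-1.74 ± 0.49, adjusted p = 0.268). Its antagonist Nog was at 1.02 to 3.56 TPM in BMT, against 4.16 to 7.81 TPM in yBM, and the activin antagonist Fst at 2.06 to 7.43 TPM in BMT, against 6.99 to 47.2 TPM in yBM. Of 24 Wnt genes, 3 were higher and 1 lower at that p, and 3 and 3 with median-ratio scaling, with 12 positive and 12 negative differences and a median of -0.03. Wnt4, a ligand, was at 22.5, 9.13 and 5.95 TPM in BMT and at 2.85 to 4.41 TPM in yBM (1.35, adjusted p = 0.243), and the secreted Wnt inhibitors Notum and Wif1 were at 3.39 to 12.6 and 12.4 to 33.2 TPM in BMT, against 1.21 to 2.73 and 2.1 to 7.18 TPM in yBM. Sfrp1, a further Wnt antagonist, was lower, with 11, 37.4 and 46.2 TPM in BMT and 46.4 to 240 TPM in yBM. None of these 4 Wnt genes overlapped between the groups. In the insulin-like growth factor system, the binding protein Igfbp4 was at 499, 705 and 876 TPM in BMT and at 1040, 1880, 2090, 1820, 1770 and 2390 TPM in yBM (-1.39 ± 0.33, adjusted p = 0.212). Igf2r, the receptor that clears IGF2, was at 38.6, 36.3 and 31.3 TPM in BMT, against 10.8 to 29.2 TPM in yBM (1.13). The RNA-binding protein Igf2bp2 was at 6.05 to 9.27 TPM in BMT and 8.44 to 17.9 TPM in yBM.

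Marrow stromal cells keep blood stem cells in place through Cxcl12, Kitl, Vcam1 and Angpt1. Cxcl12 was at 84.5, 263 and 458 TPM in BMT and at 456, 1010, 954, 946, 684 and 1010 TPM in yBM (-1.90 ± 0.58, adjusted p = 0.309), and only BMT 3 and yBM 1 overlapped. Stem cell factor, Kitl, was at 5.92, 18.3 and 5.71 TPM in BMT, against 9.07 to 59.3 TPM in yBM, Angpt1 at 1.63 to 2.77 TPM in BMT, against 2.57 to 10.4 TPM in yBM, and Vcam1 at 10.7, 22 and 10.7 TPM in BMT, against 13.4 to 36.1 TPM in yBM. Of the 23 genes of this list, 2 (Cxcl12 and Angpt1) were lower at an unadjusted p under 0.05 (2.52% of all genes). A negative difference was found for 17 of them, against 4429 of all 13195 genes. Of 27 chemokines, cytokines and inflammatory factors, 16 had a positive difference (66.4% of all genes). Their median was 0.20, close to the 0.17 of all genes. At an unadjusted p under 0.05, 2 were higher (Ccl5 and Il1b), a share near the 7.88% of all genes. At that p 3 were lower (Ccl2, Ccl7 and Saa3), against 2.52% of all genes. The T cell chemokine Ccl5 was at 13.9, 14.6 and 48.4 TPM in BMT and at 5.31, 12, 3.27, 21.4, 5.07 and 3.93 TPM in yBM, and the cytokine Il1b was at 25.6 and 16.1 TPM in BMT 2 and 3 and at 0.108 TPM in BMT 1, against at most 1.75 TPM in yBM. The monocyte chemokine Ccl7 was at 37.5, 62.8 and 64.1 TPM in BMT and at 136, 209, 61.5, 118, 152 and 174 TPM in yBM. Ccl2 was at 40.2, 77.6 and 77.9 TPM in BMT and at 247, 266, 68.2, 107, 248 and 276 TPM in yBM, and Saa3 at 2.1, 13.3 and 1.76 TPM in BMT and at 33.9, 223, 9.4, 4.95, 150 and 163 TPM in yBM. In yBM 3 and 4 Ccl2 and Saa3 were nearer to the BMT levels than in the other yBM libraries. When yBM 3 and 4 were left out together, a choice made after the data were seen, limma called 17 genes, 10 higher and 7 lower, among them Ccl2 (adjusted p = 0.00638) and Saa3 (adjusted p = 0.0479).

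Further genes of small p were lower, and they are named by rank rather than by pathway. Tmsb15b2, a beta thymosin that binds actin monomers and has a near-identical copy that makes its value uncertain, was at 22.2, 17.3 and 28.8 TPM in BMT and at 87.9, 132, 75, 51.8, 98.1 and 87.4 TPM in yBM (-1.89 ± 0.30, adjusted p = 0.0645). Tnfsf12, which encodes the cytokine TWEAK, was at 23.4, 16.4 and 23.4 TPM in BMT, against 30.5 to 64.2 TPM in yBM (-1.16). The transmembrane protein gene Plxdc2 was at 8.69, 26 and 15.3 TPM in BMT, against 31.3 to 64.2 TPM in yBM (-1.51), and Taf9, a subunit of the general factor TFIID, was at 71.8, 100 and 66.7 TPM in BMT, against 109 to 214 TPM in yBM (-0.90). Osr1, a transcription factor of early limb and kidney mesenchyme, was at 4.43, 1.51 and 13.8 TPM in BMT, against 16 to 40.4 TPM in yBM (-1.94, adjusted p = 0.21). The unnamed gene model Gm28911, named after its values were seen, was listed at 0 in the 3 BMT libraries and at 256 to 623 TPM in the 6 yBM libraries, at 184 TPM in 1 control library and at 0 in the other 3, and at 0, 711 and 470 TPM in the tumor libraries. It was listed at 0 in all 6 DKO BMT and yBM libraries of set 2.

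Glycolysis was the main group on the other side. The level of its list was 6.49 to 7.39 in BMT and 5.87 to 6.44 in yBM. Control BM ranged from 5.97 to 7.54 and DKO tumor cells from 6.24 to 6.68, so both overlapped BMT. Of its 20 genes, all tested, 19 had a positive difference (66.4% of all genes). At an unadjusted p under 0.05, 9 were higher and 0 lower (7.88% of all genes were higher). For 7 of the 20 the libraries did not overlap (3.4% of all genes), and the list median was 0.71. The promoters of Slc16a3 and Ldha are shown with ACGTG or CACGT, the core of the hypoxia response element, in capitals. They lie at chr11:120948817-120949116 (+ strand) and chr7:46845554-46845853 (+ strand) in RefSeq (GRCm38.p6).

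Slc16a3 promoter: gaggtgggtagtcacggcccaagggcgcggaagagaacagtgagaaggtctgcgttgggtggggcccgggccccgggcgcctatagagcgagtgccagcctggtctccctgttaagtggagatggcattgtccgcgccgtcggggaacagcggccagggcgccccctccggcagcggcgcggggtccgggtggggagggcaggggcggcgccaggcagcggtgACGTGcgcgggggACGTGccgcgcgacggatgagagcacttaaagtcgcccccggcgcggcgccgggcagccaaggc
Ldha promoter: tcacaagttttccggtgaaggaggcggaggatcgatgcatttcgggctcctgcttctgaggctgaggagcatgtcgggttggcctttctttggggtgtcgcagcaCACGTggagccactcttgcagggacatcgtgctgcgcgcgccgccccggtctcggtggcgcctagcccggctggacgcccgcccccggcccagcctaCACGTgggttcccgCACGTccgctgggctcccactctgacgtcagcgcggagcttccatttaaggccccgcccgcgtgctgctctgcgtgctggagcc

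The core begins 27 and 14 bases before the start of Slc16a3 and 145, 48 and 34 bases before that of Ldha. On either strand it was found in 13 of the 20 glycolysis genes, against 21.8% of all genes with a promoter. The same letters lie within CACGTG, a different element called the E-box, as at 145 and 48 bases before the start of Ldha. The count therefore does not tell the elements apart. Slc16a3, the lactate exporter, was at 12.7, 28.2 and 51.7 TPM in BMT and at 5.88, 5.96, 1.76, 4.31, 2.99 and 3.52 TPM in yBM (2.52 ± 0.64, adjusted p = 0.243). Ldha, which turns pyruvate into lactate, was at 594, 858 and 1060 TPM in BMT, against 294 to 483 TPM in yBM (1.14 ± 0.35, adjusted p = 0.309). Eno1, an enolase, was at 1370, 1740 and 2240 TPM in BMT and at 796, 872, 976, 869, 619 and 664 TPM in yBM (1.14 ± 0.30, adjusted p = 0.243). All 3 were without overlap, and in each BMT 1 was the lowest and BMT 3 the highest of the BMT libraries. Phosphoglycerate kinase, Pgk1, was at 270, 407 and 539 TPM in BMT, against 150 to 233 TPM in yBM (1.14), the glucose transporter Slc2a1 at 21.1, 33.1 and 43.5 TPM in BMT, against 11.4 to 17.4 TPM in yBM (0.99), and phosphofructokinase Pfkl at 32.4, 42.4 and 70.4 TPM in BMT, against 13.4 to 21.5 TPM in yBM (1.31). Pdk1, the kinase that shuts pyruvate out of the mitochondrion, was at 11.7, 24.9 and 35.1 TPM in BMT and at 4.55, 5.05, 5.33, 12.9, 7.15 and 4.93 TPM in yBM, where yBM 4 reached above BMT 1. With median-ratio scaling 7 of the 20 were higher (median 0.50), where 551 of all genes were. The count was 7 against the 4-month libraries and 8 without yBM 3 and 4 together, where 957 and 1705 of all genes were higher. It was 12 without BMT 1 and 4 without BMT 3, where 667 and 1071 of all genes were higher. With BMT 1 alone the list median was 0.46, against 0.36 over all genes.

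**Figure D2:**
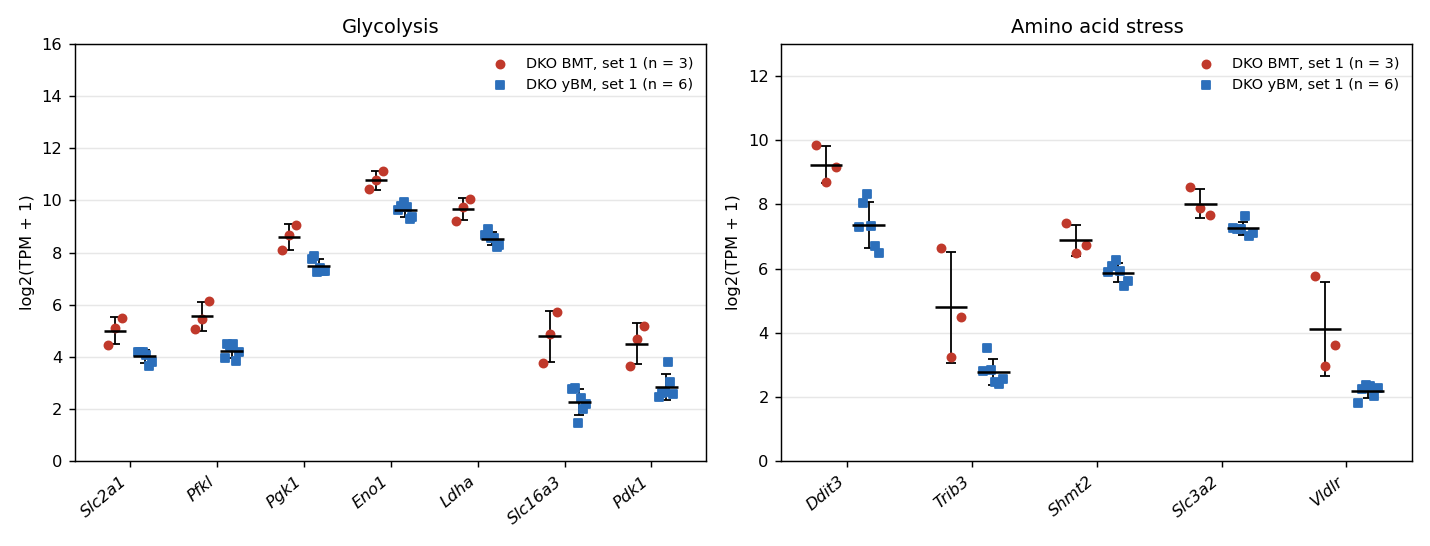
Expression of 7 glycolysis genes (left) and 5 genes of the amino acid stress list (right) as log2(TPM + 1), with 3 DKO BMT libraries (red circles) and 6 DKO yBM libraries (blue squares) per gene, where black lines are the mean and the error bars the SD. Eno1 shows 1370 to 2240 TPM in BMT above 619 to 976 TPM in yBM, and Trib3 and Vldlr spread widely in BMT (8.55 to 100 and 6.82 to 53.4 TPM).

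Genes of the amino acid stress response, which the factors Atf4 and Ddit3 (CHOP) switch on when amino acids are short, all had positive differences (19 of 19 tested, against 66.4% of all genes), with 7 higher at an unadjusted p under 0.05 (7.88% of all genes), 6 without overlap (3.4% of all genes) and a median of 0.77. Chac1, which degrades glutathione, carries a CARE core, searched as TGATGNAA or TTNCATCA on both strands and in capitals below, 193 bases before its start at chr2:119350992-119351291 (+ strand) (RefSeq, GRCm38.p6). It was found in 6 of 18 list genes with a promoter, against 4.51% of all genes with one. Chac1 is shown for its sequence only, and its expression is not described here.

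Chac1 promoter: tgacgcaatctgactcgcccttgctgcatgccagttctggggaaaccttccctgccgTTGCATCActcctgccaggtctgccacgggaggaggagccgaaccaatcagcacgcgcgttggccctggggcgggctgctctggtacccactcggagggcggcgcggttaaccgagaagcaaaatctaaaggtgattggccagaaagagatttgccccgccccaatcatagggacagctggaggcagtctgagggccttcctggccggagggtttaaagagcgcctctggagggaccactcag

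Ddit3 was at 922, 418 and 571 TPM in BMT and at 155, 263, 318, 161, 104 and 89.6 TPM in yBM (1.87 ± 0.52, adjusted p = 0.268). The symbol belongs to 2 gene IDs that may share reads. The values above are of the more abundant ID, whose longest annotated transcript has only 105 bases, so its TPM level is uncertain. The other ID averaged 152 TPM in BMT and 58.1 TPM in yBM, a difference of 1.34. Shmt2, a mitochondrial enzyme that makes glycine from serine, was at 170, 88 and 106 TPM in BMT, against 42.8 to 75.3 TPM in yBM (1.01 ± 0.31, adjusted p = 0.308), and the amino acid transporter chain Slc3a2 was at 371, 234 and 203 TPM in BMT, against 129 to 197 TPM in yBM (0.77). The pseudokinase Trib3 was at 100, 8.55 and 21.3 TPM in BMT, against 4.35 to 10.6 TPM in yBM, and the lipoprotein receptor Vldlr at 53.4, 6.82 and 11.2 TPM in BMT, against 2.55 to 4.19 TPM in yBM. BMT 1 was the highest BMT library for all 5 genes. Without BMT 1 the list median was 0.28 and 2 of its genes were higher, against 667 of all genes. The list median was 1.62 with BMT 1 alone. The level of the list was 5.38 to 7.03 in BMT and 4.87 to 5.48 in yBM. Control BM ranged from 4.41 to 6.02 and DKO tumor cells from 5.78 to 6.26, so both overlapped BMT. Of 18 endoplasmic reticulum chaperones and folding genes, 16 had a positive difference (66.4% of all genes) and 2 were higher at an unadjusted p under 0.05, a share near the 7.88% of all genes. Herpud1, which aids the removal of misfolded proteins, was at 122, 111 and 89.7 TPM in BMT, against 31.8 to 78.1 TPM in yBM (1.09), and Edem1, which hands them to degradation, was at 104, 190 and 236 TPM in BMT, against 75.9 to 151 TPM in yBM (0.87). The chaperone Hsp90b1 was at 715, 576 and 352 TPM in BMT and 297 to 421 TPM in yBM.

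The higher genes of smallest p whose libraries did not overlap came from other lists or none, and 9 of them are described. Padi2, an enzyme that converts arginine in proteins to citrulline, was at 5.79, 8 and 11.6 TPM in BMT and at 1.1, 0.792, 0.585, 2.21, 0.518 and 0.758 TPM in yBM (2.25 ± 0.35, adjusted p = 0.0645). Control BM held 0.277 to 2.81 TPM and DKO tumor cells 0.0795 to 0.536 TPM, so Padi2 was highest in the 3 BMT libraries of all 16 in set 1. Avil, advillin, an actin-binding protein of the villin family, was at 277, 9.09 and 37.1 TPM in BMT and at 2.17, 3.06, 1.05, 3.27, 0.924 and 3.11 TPM in yBM (3.94 ± 0.71, adjusted p = 0.0892), and tumor cells were at 9.13 to 20.9 TPM.

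Ndufa12, a subunit of respiratory complex I, was at 115, 106 and 154 TPM in BMT and at 57.6, 74.7, 50, 45.3, 55.8 and 51 TPM in yBM (1.15 ± 0.26, adjusted p = 0.207). Uqcrfs1, the iron-sulfur protein of complex III, was at 79.1, 58.5 and 81.9 TPM in BMT, against 31.3 to 48 TPM in yBM (0.86), and Cox4i2, an alternative subunit of cytochrome c oxidase, was at 4, 5.99 and 8.76 TPM in BMT, against 0.526 to 3.12 TPM in yBM (1.46). D2hgdh, which oxidizes D-2-hydroxyglutarate, was at 19.5, 9.04 and 8.72 TPM in BMT, against 3.28 to 6.06 TPM in yBM (1.33). The S-adenosylmethionine carrier Slc25a26 was at 13.5, 9 and 13.5 TPM in BMT, against 1.95 to 5.87 TPM in yBM (1.52), the asparaginyl-tRNA synthetase Nars2 at 8.25, 4.84 and 4.35 TPM in BMT, against 1.43 to 3.21 TPM in yBM (1.13), and the lipid transfer protein Stard7 at 35.4, 20.4 and 32.2 TPM in BMT, against 8.09 to 16 TPM in yBM (1.16). These genes were picked by their p, and no list of them was tested.

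The study follows the factors p53 and Myc. Of 35 p53 targets, 4 were higher (7.88% of all genes) and 0 lower at an unadjusted p under 0.05, with a median of 0.19, close to the 0.17 of all genes. With median-ratio scaling 1 was higher and the median was 0. With BMT 1 alone, the BMT library of lowest Trp53, the median was 0.43, near the 0.36 of all genes in that setting. Bbc3, the death-promoting protein PUMA, was at 7.66, 8.38 and 16.2 TPM in BMT and at 4.53, 3.2, 3.34, 4.39, 1.43 and 1.93 TPM in yBM (1.49 ± 0.35, adjusted p = 0.21), and Sesn1, a sestrin that restrains mTORC1, was at 35.5, 18 and 21.7 TPM in BMT, against 8.28 to 13.9 TPM in yBM (1.06). Ddit4, an mTORC1 inhibitor that also answers to hypoxia and stress hormones, was at 22.3, 39.1 and 20.7 TPM in BMT and at 1.65, 2.47, 31.7, 53.4, 1.53 and 1.87 TPM in yBM. In yBM 3 and 4 it was at the BMT level or above and in the other 4 yBM libraries far below, and without that pair it was called (adjusted p = 0.00271). The cell cycle inhibitor Cdkn1a was at 271, 67.9 and 48.1 TPM in BMT and 10.5 to 69.6 TPM in yBM.

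Myc was at 59, 13.6 and 33.7 TPM in BMT and at 24.8, 34.6, 17, 14.4, 17.8 and 19.5 TPM in yBM (0.54 ± 0.43, adjusted p = 0.671), with BMT 2 below every yBM library. Mcm7, a subunit of the replicative helicase, was at 71.3, 101 and 88.1 TPM in BMT, against 46 to 83 TPM in yBM (0.54, adjusted p = 0.57). The Myc-linked genes Rrp9, a nucleolar protein, and Rcc1, the exchange factor of the GTPase Ran, were at 48.4 to 61.1 and 17.1 to 36.3 TPM in BMT, against 33.1 to 64.1 and 9.22 to 25.5 TPM in yBM, and Ran itself at 204 to 288 TPM in BMT and 190 to 245 TPM in yBM. All 4 overlapped. Of 40 replication licensing genes, 32 mitosis genes and 44 DNA repair genes, 0 were past an unadjusted p of 0.05 in either direction. Of 39 nucleolar genes, 36 had a positive difference and 3 were higher at that p (Utp20, Pes1 and Polr1b), where 66.4% and 7.88% of all genes did so. The median was 0.36 on TPM and 0.15 with median-ratio scaling, which left 1 higher. Pes1, needed for the large ribosomal subunit, was at 97.5, 84.1 and 86.7 TPM in BMT, against 47.6 to 72.5 TPM in yBM (0.59). The Myc antagonists Mxi1 and Mxd1 were at 14 to 15.7 and 3.36 to 6.75 TPM in BMT, against 6.47 to 9.98 and 1.59 to 6.8 TPM in yBM. Cdk6, a kinase of the G1 phase, was at 12, 14.4 and 12.3 TPM in BMT, against 4.98 to 8.78 TPM in yBM (0.90 ± 0.22, adjusted p = 0.22), and Mybl2, a factor of cycling cells, at 17.2, 26.3 and 24.6 TPM in BMT, against 8.16 to 14.7 TPM in yBM (0.95).

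In bulk RNA, fewer cells of a type and less RNA per cell cannot be told apart. The 30 leukocyte genes were all tested, and their mean level was 6.37 to 7.02 in BMT and 3.6 to 7.43 in yBM, with yBM 3 the lowest. Ptprc, the leukocyte antigen CD45, was at 19.5, 47.2 and 13.8 TPM in BMT and at 29.2, 17.1, 2.1, 7.82, 19.8 and 16 TPM in yBM. The chemokine receptor Cx3cr1 was at 7.66, 8.82 and 11.6 TPM in BMT, against 0.0925 to 4.99 TPM in yBM (2.27 ± 0.53, adjusted p = 0.21), and Pf4, platelet factor 4, at 13.5 to 83.7 TPM in BMT, against 2.6 to 16.7 TPM in yBM. Itgam, an integrin of myeloid cells, was at 34.2, 53.8 and 33.9 TPM in BMT, against 3.71 to 32.6 TPM in yBM (1.17). Of this list, 25 of 30 genes had a positive difference (66.4% of all genes), with a median of 0.80 (0.59 with median-ratio scaling). Of the 30, 2 (Cx3cr1 and Pf4) were higher and 0 lower at an unadjusted p under 0.05, a share near the 7.88% of all genes. Only 2 of 12 lymphocyte genes were tested, with a level of 2.25, 3.55 and 2.49 in BMT and 0.78 to 1.7 in yBM. That gap came from Ighm, the heavy chain of IgM, at 12.6, 87.1 and 13.2 TPM in BMT, against 1.02 to 3.82 TPM in yBM, while the T cell kinase Lck was at 0.565 to 1.22 TPM in BMT and 0.25 to 1.19 TPM in yBM. The part of these cells in the other differences was not tested beyond the leukocyte covariate above.

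Osteoclast genes split both groups. Mmp9, gelatinase B, was at 1.85, 1480 and 5110 TPM in BMT and at 37.3, 0.851, 1020, 2380, 106 and 11.8 TPM in yBM, and Acp5, the phosphatase TRAP, at 4.54, 497 and 1830 TPM in BMT and at 39.4, 6.43, 552, 944, 71.9 and 13.5 TPM in yBM. Cathepsin K, Ctsk, was at 152, 511 and 1230 TPM in BMT and 133 to 1730 TPM in yBM. BMT 2, BMT 3, yBM 3 and yBM 4 were high for all 3 and the other libraries low, so the list's median of 1.21 became 2.10 without BMT 1 and -0.15 without BMT 3. Among regulators, the RANK receptor Tnfrsf11a was at 4.73, 21.1 and 20.3 TPM in BMT, against 2.8 to 9.37 TPM in yBM, and Nfatc1, the master factor of osteoclasts, at 18, 46.9 and 90.9 TPM in BMT, against 7.35 to 51.6 TPM in yBM.

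Osteoblast genes set BMT 1 apart. Sp7, the factor osterix whose promoter drives the Cre, was at 133, 11.9 and 31.2 TPM in BMT and at 14.4, 22.2, 47, 41.7, 13.7 and 17.4 TPM in yBM. Ibsp, bone sialoprotein, was at 3260, 5.77 and 21.8 TPM in BMT, against 12.8 to 261 TPM in yBM, and alkaline phosphatase, Alpl, at 1330, 638 and 1350 TPM in BMT, against 370 to 1610 TPM in yBM. Runx2, the first factor of the lineage, was present in all, at 43.4, 18.5 and 27 TPM in BMT and 8.66 to 58.1 TPM in yBM. Of 15 osteoblast transcription factors, 0 were past an unadjusted p of 0.05, and of 15 mineralized matrix genes 1 was (Ank, a pyrophosphate and ATP exporter, at 57.9, 41.1 and 85.4 TPM in BMT, against 12.9 to 42.6 TPM in yBM). The median of the mineralized matrix list was 0.65, and -0.51 without BMT 1.

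**Figure D3:**
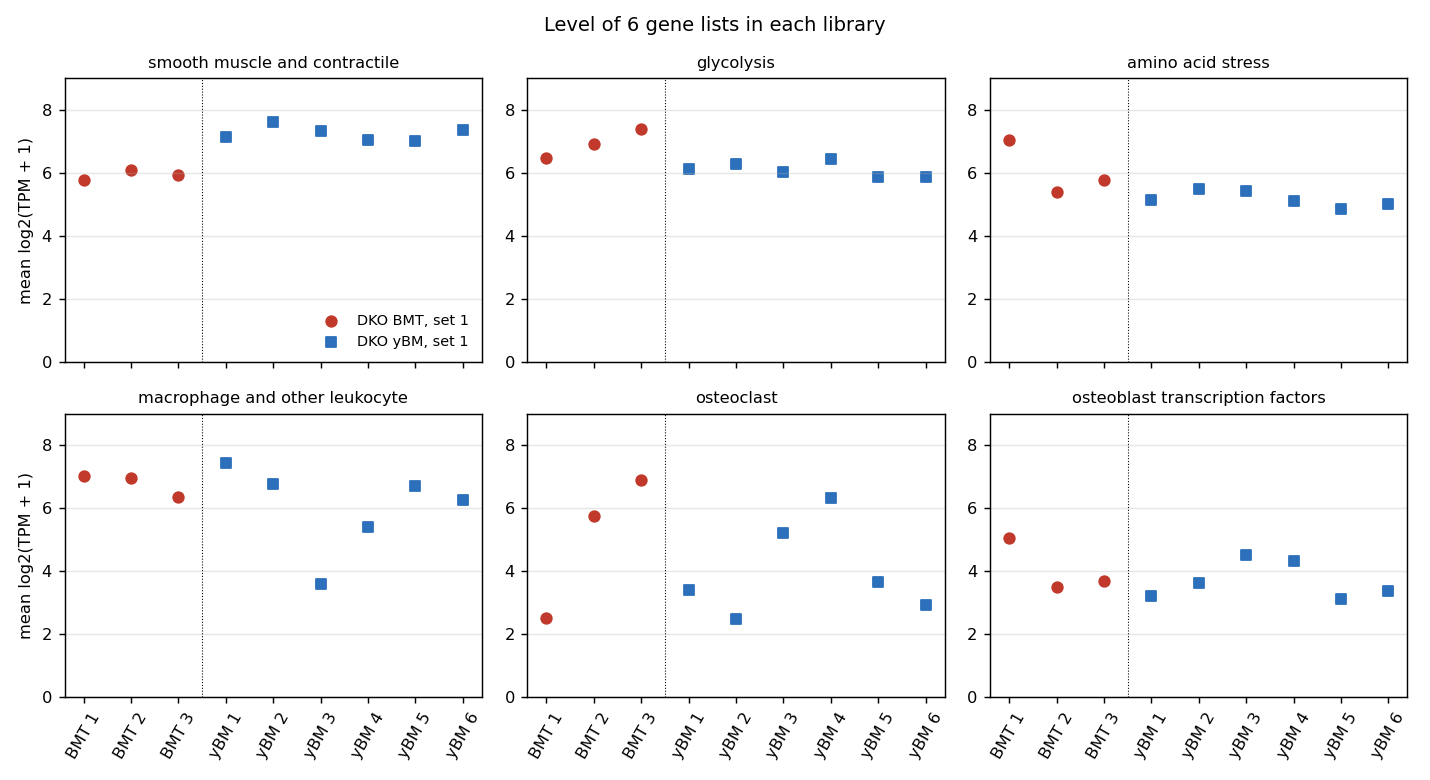
Mean log2(TPM + 1) of the tested members of 6 gene lists in each library, with the 3 DKO BMT libraries (red circles) left of the dotted line and the 6 DKO yBM libraries (blue squares) right of it. The contractile list is at 5.79 to 6.08 in BMT and 7.02 to 7.62 in yBM, while the osteoclast list is high in BMT 2, BMT 3, yBM 3 and yBM 4.

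The 2 ages of yBM mice gave contractile and glycolysis medians of similar size. Against the 4-month libraries, 957 genes were higher and 255 lower at an unadjusted p under 0.05, and against the 1.5-month libraries 443 and 241. At an adjusted p under 0.05, limma called 1 gene against 4 months and 0 against 1.5 months. The contractile median was -1.28 against 4 months and -1.48 against 1.5 months, and that of glycolysis 0.78 and 0.68. The osteoclast median was 0.81 against 4 months and 1.57 against 1.5 months.

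Set 2 gives the same comparison in other libraries, 3 DKO BMT and 3 DKO yBM, and also in libraries labelled SKO. There Wwox went against some labels. It was at 11.8, 0.102 and 0.0857 TPM in SKO BMT, against 3.12 to 7.87 TPM in SKO yBM, and at 0.0164 to 0.3 TPM in DKO BMT, against 0.0288 to 0.78 TPM in DKO yBM, while the tumor libraries labelled DKO held 4.26 to 5.23 TPM. The libraries labelled SKO BMT 2 and 3 thus had Wwox at the DKO level. The leukocyte level was 0.4, 4.12 and 0.29 in DKO BMT and 0.41 to 0.51 in DKO yBM. In DKO, 1 of 12256 genes (0.00816%), the unnamed model Gm25636, was called, and 324 (2.64%) were past an unadjusted p of 0.05, while a fit to the 6 DKO libraries alone, added after the data were seen, called 5. The difference between the set 1 and set 2 effects was called for 1 gene (0.00758%), Gm28911, and 722 (5.47%) were past an unadjusted p of 0.05. Of the 332 genes lower in set 1 at an unadjusted p under 0.05, 203 (61.1%) had a negative difference in set 2 DKO, where 54.6% of all genes with a negative difference in set 1 did. Of the 1040 higher genes, 621 (59.7%) had a positive difference, where 53.7% of all genes with a positive difference did.

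The contractile list had a median of -0.20 in set 2 DKO, with 12 of 16 genes negative, as were 6418 of all 13195. Of the 16, 0 were past an unadjusted p of 0.05 (1.49% of all genes were lower there). In the libraries labelled SKO the median was -1.63, with 16 of 16 negative, as were 7322 of all 13195. There 5 were past that p (5.82% of all genes were lower). Without SKO BMT 2 and 3, which leaves 1 SKO BMT library, the SKO median was -1.64, with 13 of 16 negative. Myl9 was at 227, 2300 and 28.3 TPM in set 2 DKO BMT and at 961, 1370 and 369 TPM in DKO yBM, and Cnn1 at 142, 1400 and 6.1 TPM in DKO BMT and at 650, 635 and 126 TPM in DKO yBM. DKO BMT 2 of set 2 was the high library for both, and it was also the one with a leukocyte level of 4.12. Slc16a3 was at 28.3, 5.77 and 1.88 TPM in set 2 DKO BMT and at 22.5, 15.1 and 17.7 TPM in DKO yBM, and the glycolysis median there was -0.35, and 0.06 in SKO (0.67 without SKO BMT 2 and 3). The set 1 effect on Slc16a3 exceeded that in set 2 by 3.73 on the log2 scale, which did not pass (adjusted p = 0.633). The amino acid stress list had a median of 0.10 in set 2 DKO and 0.77 in SKO. In SKO 19 of 19 genes were positive, as were 5759 of all 13195, and 1 was past an unadjusted p of 0.05 (1.86% of all genes were higher there). Without SKO BMT 2 and 3 the SKO median was -0.22, with 8 of 19 positive.

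**Figure D4:**
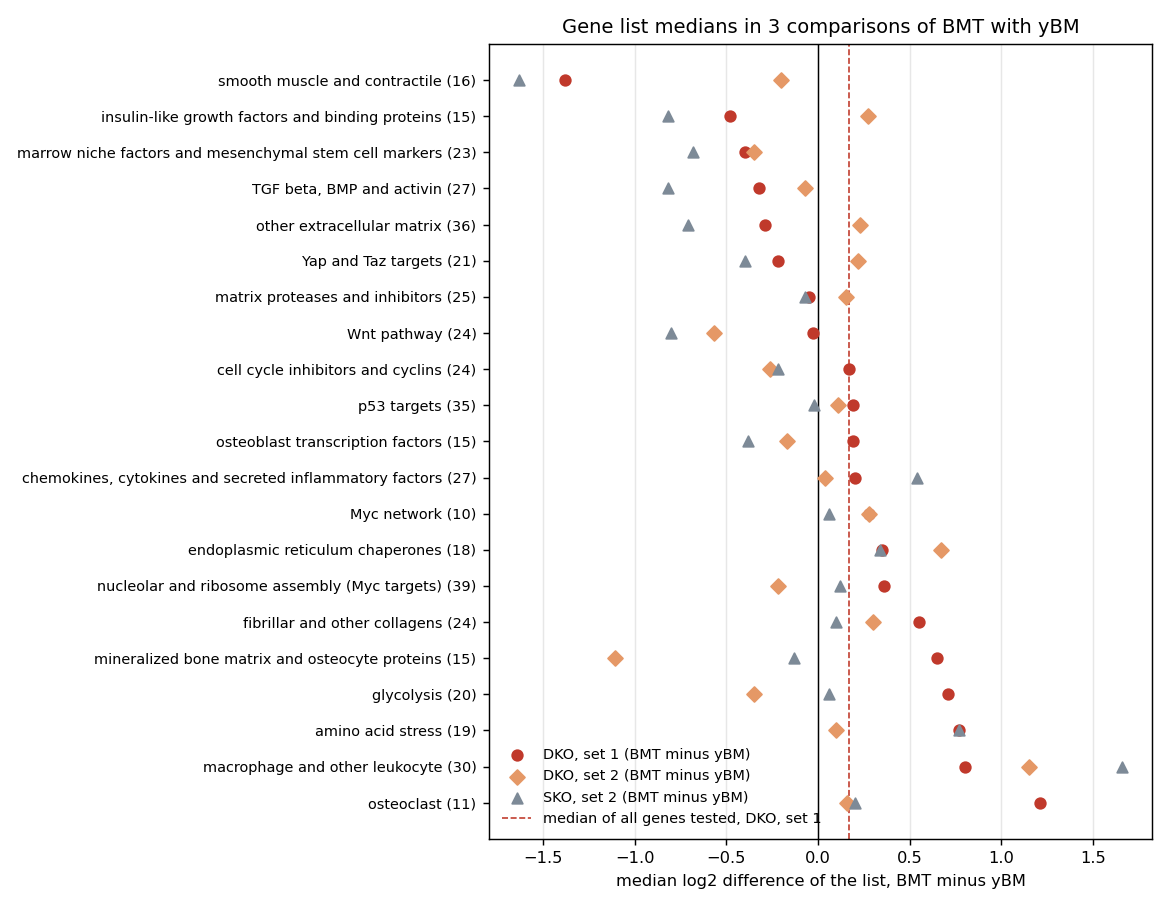
Median log2 difference, BMT minus yBM, of 21 gene lists (number of tested members in brackets) in set 1 DKO (red circles), set 2 DKO (orange diamonds) and the set 2 libraries labelled SKO, SKO BMT 2 and 3 included (grey triangles), where the dashed line is the median of all genes tested in set 1. The contractile list lies at -1.38, -0.20 and -1.63, and glycolysis at 0.71, -0.35 and 0.06.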

How the data were processed

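RNA was measured in 37 libraries by poly-A RNA-seq with a stranded kit. Per the labels, the authors used Trim Galore 0.6.1, FastQC, Salmon, DESeq2 and the mouse build mm39, and the deposited values are TPM per gene from Salmon estimates, scaled by the authors within each library. The values hold no read counts, so depth is unknown and no counting interval is given. In 37 columns, 0 matched no library and 3 matched a control group only.

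Gene IDs (51123) were matched to symbols for 48246. Values were taken as log2(TPM + 1), so folds of low genes are understated. Genes that reached 1 TPM in 3 or more of the 9 libraries were tested with limma 3.58.1 (R 4.3.3, trend) in a fit of all 16 set 1 libraries, with Benjamini-Hochberg adjustment over 13195 genes and a threshold of 0.05. The script was tested on 5 simulated data sets of normally distributed values with 200 changed genes each. It found 77% of the log2 changes of 2 and 20.4% of those of 1, with 5.58% of calls false. A count of 0 called genes is thus no sign that changes of such size are absent. No pair of the 9 libraries held equal values (36 pairs, at most 4.3% of genes within 1%).

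The text names the genes that the study names, the 10 genes of smallest p in each direction without overlap of the libraries and with at least 5 TPM in the higher group, and in each list the 3 members of smallest p. A gene that this rule takes is not reported here. Cdkn1a, Mmp9, Acp5, Ctsk, Sp7, Ibsp, Alpl, Runx2, Trib3, Pdk1, Pfkl, Tpm1, Cald1, Myh11, Flna, Smtn, Ccn2, F3, Gm28911, Ptprc, Ccl5, Il1b, Ighm and Lck were added after their values were seen. The members and lists were chosen with earlier results of these data known. Alternatives were another pseudocount, filters, scalings, age groups, a replicate block, a leukocyte covariate and left-out libraries. Promoters came from RefSeq (GRCm38.p6) and transcript lengths from GENCODE.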

Additional observations from a re-analysis of the deposited data

Results flagged for a closer look

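Among the 6 yBM libraries, 16 of 137 values looked at (15 genes and 1 list level) lay far from the other 5. The rule marks about 5% of groups by chance where values are independent and normally distributed. TPM values of related genes in the same libraries need not be so, and no excess is read from this count. In yBM 4 these were the highest values of Padi2 (2.21 TPM), D2hgdh (6.06 TPM), the Myc antagonist Mxd1 (6.8 TPM), the RANK receptor Tnfrsf11a (9.37 TPM), the osteoclast fusion gene Ocstamp (7.35 TPM), Igf2r (29.2 TPM), Slc3a2 (197 TPM), Edem1 (151 TPM) and Pdk1 (12.9 TPM). In yBM 3 they were Osr1 (40.4 TPM), Tpm1 (1190 TPM) and the level of the nucleolar list (5.68). In yBM 2 they were Mfap5 (359 TPM), Actg2 (628 TPM) and Trib3 (10.6 TPM), and in yBM 1 Cx3cr1 (4.99 TPM).

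The unnamed gene model Gm28911 was the only gene whose BMT against yBM difference was called different between set 1 and set 2 (limma interaction, adjusted p = 1.01e-07). It was listed at 0 in the 3 BMT libraries of set 1 and in the DKO BMT and yBM libraries of set 2.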

How the results depend on the processing

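On 16 libraries limma called 0 genes higher and 0 lower at an adjusted p under 0.05, and the same with a pseudocount of 0.1, no filter, a 5 TPM filter, median-ratio scaling, no mitochondrial transcripts, the 1.5-month yBM only, no trend, or the leukocyte level as a covariate. Fitting only the 9 libraries called 6 higher and 15 lower, quantile normalization 1 higher and 2 lower, and the 4-month yBM only 1 lower. Alternatives chosen after seeing the data called 10 higher and 7 lower without yBM 3 and 4 together, 63 higher and 37 lower without BMT 2 and 3 together (a lone BMT library assumed to vary like the others), and 0 after centring by transcript length. Leaving out 1 library gave 0 to 7 higher (7 without BMT 1, 1 without BMT 2, 2 without yBM 4) and 0 to 2 lower (2 without BMT 3, 1 without BMT 2, 1 without yBM 4). The set 2 count of 1 ranged from 0 (without any 1 yBM library) to 3 (without BMT 1), with 2 without BMT 2, and was 5 in a fit to its 6 DKO libraries alone, and the interaction count of 1 became 2 with a pseudocount of 0.1 and 7 with no filter. The mitochondrial difference of -2.94 points ranged from -7.37 (without BMT 2) to 1.04 (without BMT 1). The cause was not tested for any of these.

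Deviations of same-numbered BMT and yBM libraries had correlations of 0.07, -0.27 and 0.08 in set 1, where other pairs ran from -0.22 to 0.37. In set 2 the same-numbered pairs had 0.01, 0.23 and 0.24, where other pairs ran from -0.29 to 0.11. With 3 BMT libraries in each set, these values cannot decide whether the numbers pair the groups. The study calls the BMT and tumor cells paired, while its methods give as many tumor-bearing mice as BMT and tumor libraries together. Same-numbered BMT and tumor libraries had correlations of 0.06, 0.31 and -0.11, and a replicate block on these pairs alone, added after the data were seen, gave 0 calls, with 1043 genes higher and 333 lower at an unadjusted p under 0.05. With a replicate block set 1 still had 0 calls, 347 genes higher and 257 lower at an unadjusted p under 0.05, and set 2 had 1 call. The block gave log2 differences of 0 for Ran and -0.26 for Smtn.

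Of 115 named genes over all settings, 104 kept their direction in each and 11 did not. Ran was -0.07 with median-ratio scaling, 0 centred by length and -0.01 without BMT 1. Leaving out 1 library each, the lowest and highest values were -0.92 and 0.06 for Wwox, -0.28 and 5.13 for Mmp9, -0.5 and 3.69 for Acp5, -0.25 and 1.25 for Ctsk, -0.24 and 1.44 for Sp7, -2.06 and 2.39 for Ibsp, and -0.05 and 0.3 for Smtn, where the low values were without BMT 3 for Mmp9, Acp5 and Ctsk, and without BMT 1 for Sp7, Ibsp and Wwox. Smtn was -0.09 with median-ratio scaling, -0.06 after quantile normalization, -0.02 against 1.5 months, -0.08 centred by length, -0.04 without BMT 3 and -0.05 without yBM 5. Flna was 0.17 without BMT 1 and 0.05 without yBM 3 and 4. With BMT 1 alone, Wwox was 0.77, Trp53 -0.03, Pdpn 0.03, Mmp9 -4.79, Acp5 -3.74 and Ctsk -1.12. TPM carries no depth, so the precision of low genes is unknown.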
